A study of Homo sapiens with 18 samples.

Results

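NF-kappaB is a family of dimeric transcription factors, and the 10 genes described here are its 5 subunit genes (NFKB1, NFKB2, REL, RELA and RELB) together with 5 feedback targets that the factors themselves switch on (NFKBIA, NFKBIE, TNFAIP3, BIRC3 and TRAF1). They were picked by gene symbol, 10 of the 26249 genes in the tables, with earlier results of these data known. Expression was read in 18 libraries from 2 lines that carry the label multiple myeloma, a cancer of plasma cells. The 6 groups, of 3 replicates each, were XG1 cells in 100 nM YKL-5-124, XG1 cells in 1000 nM YKL-5-124, AMO1 cells in 100 nM YKL-5-124, AMO1 cells in 1000 nM YKL-5-124, and XG1 and AMO1 cells in DMSO, the solvent. All groups were sampled after 6 h, and the labels name no genetic change in either line. YKL-5-124 is a covalent inhibitor of CDK7, the kinase of the general transcription factor TFIIH, which phosphorylates RNA polymerase II and activates the cell cycle kinases. The series title calls the lines resistant, and the labels do not say to what.

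In resting cells NF-kappaB dimers are held in the cytoplasm by inhibitors of the IkappaB family. Signals from receptors such as those for tumour necrosis factor activate IkappaB kinase, the inhibitor is degraded, and the dimer enters the nucleus, where it switches on genes of survival and inflammation and also genes of its own inhibitors, which close the loop. A slower, non-canonical arm runs through the kinase NIK (MAP3K14) and yields dimers of RELB with the processed NFKB2 product. Plasma cells and many myelomas depend on signals through these arms, and lesions in TRAF3, BIRC2, BIRC3 and MAP3K14 are known in myeloma.

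NF-kappaB dimers bind a 10-base site known by name as the kappaB consensus, and several of these genes carry it near their start, which is why their promoters are shown first. In the RefSeq promoter table (GRCh38.p14, 250 bases before to 50 after each annotated start), 8 of the 10 genes had at least 1 window, all but RELB and NFKBIE. The consensus was searched on both strands, and overlapping matches were counted. Of the 8 genes, 6 (NFKB1, NFKB2, REL, NFKBIA, TNFAIP3 and BIRC3) had a match in at least 1 window, against 13.3% of the 27305 genes in the table and 11.3% of its 35116 windows. The windows of RELA and TRAF1 held no match, which says only that these letters are not in those windows. The genes were picked as NF-kappaB subunits and targets, and several have more than 1 window, so nothing is read from their share of matches. A match is a description of the sequence, and binding was not measured. The stretches below belong to the 4 genes that were lower in AMO1 at 1000 nM and to NFKBIA, with each match in capitals, on the strand of the gene and 5′ to 3′. They are chr4:102501109-102501328 (+) for NFKB1, chr10:102395455-102395704 (+) for NFKB2, chr14:35404750-35404999 (-) for NFKBIA, chr6:137867190-137867215 (+) for TNFAIP3, and chr11:102317234-102317449 (+) for BIRC3. The first match of the TNFAIP3 stretch lies inside an annotated untranslated region (UTR) of that gene in GENCODE 29.
NFKB1: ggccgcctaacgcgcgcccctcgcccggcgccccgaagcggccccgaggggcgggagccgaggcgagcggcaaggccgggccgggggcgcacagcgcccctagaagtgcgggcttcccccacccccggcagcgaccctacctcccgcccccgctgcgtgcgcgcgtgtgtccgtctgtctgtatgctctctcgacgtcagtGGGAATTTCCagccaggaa
NFKB2: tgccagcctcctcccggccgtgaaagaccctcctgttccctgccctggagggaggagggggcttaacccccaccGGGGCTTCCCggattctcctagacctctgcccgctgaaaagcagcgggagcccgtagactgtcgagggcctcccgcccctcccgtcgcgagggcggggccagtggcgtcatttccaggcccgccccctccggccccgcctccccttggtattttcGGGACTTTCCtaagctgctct
NFKBIA: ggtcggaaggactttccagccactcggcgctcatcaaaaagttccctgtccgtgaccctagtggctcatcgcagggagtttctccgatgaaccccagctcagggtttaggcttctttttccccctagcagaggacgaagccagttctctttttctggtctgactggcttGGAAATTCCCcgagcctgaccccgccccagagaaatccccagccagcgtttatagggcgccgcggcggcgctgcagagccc
TNFAIP3: ttGGAAAGTCCCgtGGAAATCCCCgg
BIRC3: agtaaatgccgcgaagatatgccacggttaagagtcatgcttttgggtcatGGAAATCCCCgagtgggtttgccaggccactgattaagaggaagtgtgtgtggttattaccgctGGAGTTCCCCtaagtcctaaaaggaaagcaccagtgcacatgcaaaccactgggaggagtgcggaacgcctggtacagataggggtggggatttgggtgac
The NFKB2, TNFAIP3 and BIRC3 stretches each hold 2 matches and the NFKB1 and NFKBIA stretches hold 1 each. The windows of NFKB2 held 0, 3 and 2 matches, and those of NFKB1 held 1 and 0. Of such windows, the one shown had the most whole matches before the annotated start and any annotated UTR. In TNFAIP3, an inducible inhibitor, the pair lies within 26 bases.

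Library quality and identity bear on what follows. Between 9284 and 10571 genes reached 1 FPKM in each library, and the medians of 44 spike-in RNAs deviated by -0.08 to 0.07 on the log2 scale. The XG1 libraries did not carry the markers of their labelled type. Of 10 plasma cell markers, 9 reached 10 FPKM in each of the 9 AMO1 libraries (summed level 4808 to 7249 FPKM) and 1 in each of the 9 XG1 libraries, where 5 were under 1 FPKM throughout (summed level 44.4 to 75.9 FPKM). Of 10 erythroid markers, 7 reached 10 FPKM in each XG1 library (summed level 2681 to 3213 FPKM) against 1 in AMO1 (24.2 to 60.1 FPKM). They are called the XG1 libraries below, after their label. T cell, myeloid and stromal markers summed to at most 37.6 FPKM in any library, and that highest sum, of the 5 myeloid genes, was in XG1. In these bulk samples fewer cells of a type and less RNA per cell cannot be told apart. FPKM is scaled by the length of a transcript, although libraries of 3′ ends yield reads independently of length, so levels are compared between libraries for the same gene and only roughly between genes.

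**Figure D1:**
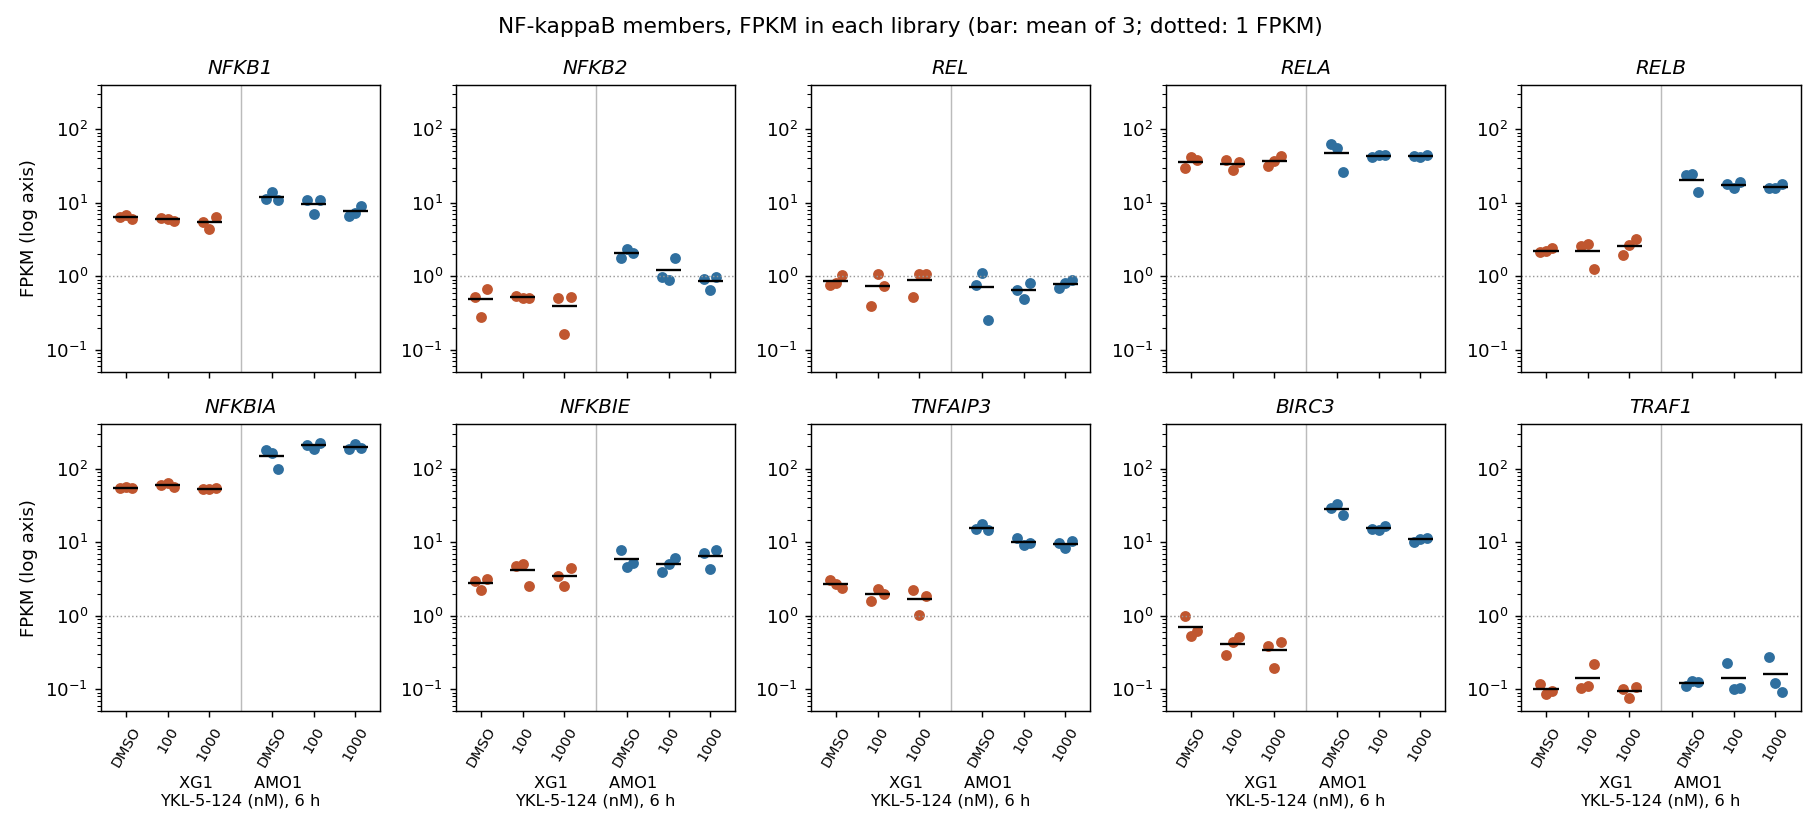
Level of each NF-kappaB gene in FPKM (log axis) in every library, 3 per group, by dose of YKL-5-124 in XG1 (orange, left) and AMO1 (blue, right), with a bar at the mean and a dotted line at 1 FPKM. BIRC3 steps down with dose in AMO1, with means of 28.4 FPKM in DMSO, 15.6 FPKM at 100 nM and 10.9 FPKM at 1000 nM, and lies under 1 FPKM in every XG1 library, while RELA shows no step in either line.

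Among the subunits, RELA, the transactivating partner of the most common dimer, had the highest FPKM and differed little between groups. It had 42.0, 44.5 and 44.9 FPKM in AMO1 at 100 nM and 42.9, 42.6 and 45.1 FPKM at 1000 nM, against 62.3, 55.8 and 26.5 FPKM in AMO1 DMSO. XG1 cells had 38.4, 27.6 and 35.9 FPKM at 100 nM and 31.3, 37.3 and 43.7 FPKM at 1000 nM, against 29.9, 41.6 and 37.6 FPKM in DMSO. The treated libraries lay inside the range of their DMSO libraries in AMO1 and overlapped it in XG1, and the spread of AMO1 DMSO came from replicate 3.

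NFKB1 encodes p105, which is processed to the p50 subunit and also acts as an inhibitor. It had 10.9, 7.15 and 10.8 FPKM in AMO1 at 100 nM and 6.55, 7.34 and 8.98 FPKM at 1000 nM, against 11.2, 14.2 and 10.7 FPKM in AMO1 DMSO. All 3 libraries at 1000 nM lay below all 3 DMSO libraries, while at 100 nM the groups overlapped. The XG1 libraries had 6.27, 6.05 and 5.62 FPKM at 100 nM and 5.46, 4.36 and 6.45 FPKM at 1000 nM, against 6.41, 6.91 and 6.08 FPKM in DMSO, and both doses overlapped DMSO.

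NFKB2 encodes p100, the inhibitor and precursor of the p52 subunit of the non-canonical arm, and was the lower of the 2 precursor genes in every library. It had 0.978, 0.880 and 1.77 FPKM in AMO1 at 100 nM and 0.929, 0.654 and 0.989 FPKM at 1000 nM, against 1.79, 2.36 and 2.10 FPKM in AMO1 DMSO. Both doses lay wholly below DMSO, though replicate 3 at 100 nM came close to the lowest DMSO library. Its XG1 values stayed between 0.166 and 0.682 FPKM, and the groups overlapped.

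RELB, the p52 partner, separated the lines more than any other subunit. It had 17.7, 15.8 and 19.1 FPKM in AMO1 at 100 nM and 16.1, 16.1 and 17.8 FPKM at 1000 nM, against 23.6, 24.4 and 13.8 FPKM in AMO1 DMSO. As for RELA, replicate 3 was the low one of the DMSO libraries, and both doses lay inside the DMSO range. The 9 XG1 libraries had 1.25 to 3.20 FPKM, with 2.24 ± 0.142 FPKM in DMSO (SD, n = 3). REL, which encodes c-Rel, the subunit of activated lymphocytes, had 0.256 to 1.12 FPKM over all 18 libraries, with a median of 0.788 FPKM and overlap of all dose groups with DMSO, and it did not pass the filter of a 1 FPKM group mean.

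Among the feedback inhibitors, NFKBIA, which encodes IkappaBalpha, was the most abundant of the 10 genes by FPKM and the only one higher after treatment in AMO1 with no overlap. It had 212.4, 186.2 and 221.2 FPKM in AMO1 at 100 nM and 186.8, 215.2 and 192.7 FPKM at 1000 nM, against 181.8, 164.4 and 99.7 FPKM in AMO1 DMSO. In the XG1 libraries it had 59.4, 63.1 and 56.5 FPKM at 100 nM and 52.0, 53.1 and 54.2 FPKM at 1000 nM, against 54.3, 56.8 and 54.4 FPKM in DMSO. The XG1 libraries at 1000 nM lay just below DMSO, by less than 1 FPKM at the nearest pair, and those at 100 nM overlapped it.

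NFKBIE encodes IkappaBepsilon, an inhibitor that NF-kappaB induces with a delay. It had 3.98, 5.06 and 6.17 FPKM in AMO1 at 100 nM and 7.03, 4.39 and 7.77 FPKM at 1000 nM, against 7.81, 4.60 and 5.16 FPKM in DMSO. The XG1 libraries had 4.81, 5.01 and 2.54 FPKM at 100 nM and 3.47, 2.56 and 4.51 FPKM at 1000 nM, against 2.99, 2.25 and 3.14 FPKM in DMSO. Every dose group overlapped its DMSO group.

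TNFAIP3 encodes A20, a ubiquitin-editing enzyme that shuts signalling down upstream of IkappaB kinase. It had 11.6, 9.01 and 9.85 FPKM in AMO1 at 100 nM and 9.84, 8.44 and 10.3 FPKM at 1000 nM, against 15.2, 17.8 and 14.4 FPKM in DMSO. The XG1 libraries had 1.57, 2.32 and 1.99 FPKM at 100 nM and 2.21, 1.03 and 1.86 FPKM at 1000 nM, against 3.08, 2.72 and 2.39 FPKM in DMSO. In both lines and at both doses every treated library lay below every DMSO library.

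BIRC3 encodes cIAP2, a ubiquitin ligase of the receptor complexes that restrains NIK and is itself an NF-kappaB target. It had 15.2, 14.8 and 16.8 FPKM in AMO1 at 100 nM and 10.2, 11.1 and 11.4 FPKM at 1000 nM, against 29.2, 32.5 and 23.3 FPKM in AMO1 DMSO. The 3 AMO1 groups did not overlap one another. XG1 cells had 0.290, 0.445 and 0.509 FPKM at 100 nM and 0.385, 0.194 and 0.447 FPKM at 1000 nM, against 0.979, 0.532 and 0.629 FPKM in DMSO, again with both doses below DMSO but all under 1 FPKM. TRAF1, an adaptor that binds TRAF2 and the cIAPs, had 0.0768 to 0.274 FPKM over the 18 libraries, with a median of 0.109 FPKM. The commonest low value of a library lay between 0.0745 and 0.133 FPKM, so TRAF1 was near the lower end of the scale and gave no readable change.

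The tests used limma on log2(FPKM + 1), across the 12204 genes whose mean reached 1 FPKM in any group, and a call is an adjusted p under 0.05. Of the 10 genes 8 were tested, and REL and TRAF1 were not. In AMO1 at 1000 nM, 4 of the 8 were called, all lower, where 17.1% of all tested genes were called and 15.4% were called lower. The 8 had a median log2 change of -0.42 and all tested genes one of -0.18. In AMO1 at 100 nM, 1 of the 8 was called, BIRC3, where 2.20% of all tested genes were called and 1.76% were called lower, with median log2 changes of -0.25 for the 8 and -0.09 for all. For XG1 limma called 0 of the 8 at 100 nM, where 6.61% of all tested genes were called, and 0 of the 8 at 1000 nM, where 17.6% were called. At an unadjusted p under 0.05 the XG1 counts were 0 at 100 nM and 2 at 1000 nM (TNFAIP3 and BIRC3). Over all 12204 tested genes, 2501 and 3781 passed that threshold there. The AMO1 counts were 4 at 100 nM and 5 at 1000 nM, where 1846 and 3649 of all tested genes passed. Both XG1 medians of the 8 were -0.08, against -0.01 and -0.19 for all tested genes at 100 and 1000 nM.

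Overlap of the groups was counted as well. In AMO1 the treated and DMSO libraries did not overlap for 5 of the 8 genes at 1000 nM (4 lower, and NFKBIA higher), where 35.6% of all tested genes did not overlap, and for 4 of the 8 at 100 nM (NFKB2, TNFAIP3 and BIRC3 lower, and NFKBIA higher), where the share was 18.8%. In the XG1 libraries 3 of the 8 did not overlap at 1000 nM (NFKBIA, TNFAIP3 and BIRC3, all lower), where the share was 32.2%, and 2 of the 8 at 100 nM (TNFAIP3 and BIRC3, both lower), where it was 27.4%. The XG1 shares of the 8 were thus close to those of all genes.

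BIRC3 had the largest change of the 8 genes. In AMO1 at 1000 nM it fell by 1.29 ± 0.16 on the log2(FPKM + 1) scale (SE, adjusted p = 3.81e-05), to 10.9 ± 0.628 FPKM, against 28.4 ± 4.68 FPKM in DMSO (SD, n = 3 each), which is 0.384 times the DMSO mean. At 100 nM it fell by 0.81 ± 0.16 (adjusted p = 0.0118), to 15.6 ± 1.03 FPKM. The call at 1000 nM held under every alternative and with any 1 library left out. The call at 100 nM did not, being lost with a pseudocount of 0.1 (adjusted p = 0.128), with only the groups compared in the fit (adjusted p = 0.0922), with the replicate block (adjusted p = 0.0527), and when AMO1 DMSO replicate 1 or 2 or AMO1 100 nM replicate 1 or 2 was left out, where the adjusted p reached 0.0799.

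The other 3 calls in AMO1 at 1000 nM were smaller. NFKB2 fell by 0.73 ± 0.18 (adjusted p = 0.00683), to 0.857 ± 0.179 FPKM, against 2.08 ± 0.283 FPKM in DMSO. Its mean at 1000 nM was under 1 FPKM, so it entered the test through the DMSO and 100 nM groups, and the call also held with no filter. TNFAIP3 fell by 0.67 ± 0.18 (adjusted p = 0.0148), to 9.52 ± 0.960 FPKM, against 15.8 ± 1.78 FPKM in DMSO. Leaving out replicate 2 of AMO1 DMSO or of AMO1 1000 nM ended that call, with an adjusted p of up to 0.0775. NFKB1 fell by 0.59 ± 0.18 (adjusted p = 0.0288), to 7.62 ± 1.24 FPKM, against 12.0 ± 1.87 FPKM in DMSO. This was the weakest of the 4, and it was lost with no filter (adjusted p = 0.0540), with the replicate block (adjusted p = 0.0730) and without replicate 1 or 2 of either group (adjusted p up to 0.140).

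Scaling mattered at 1000 nM, because the median of all tested genes itself lay 0.18 below DMSO in AMO1 and 0.19 below in XG1. As deposited, 217 genes were called higher and 1874 lower in AMO1 at 1000 nM, but 1012 higher and 815 lower after centring of every library to its own median and 861 higher and 1011 lower after quantile normalization. In XG1 at 1000 nM the split was 232 higher and 1920 lower as deposited, 969 and 969 after centring, and 1174 and 1209 after quantile normalization. Single libraries mattered as well. Without XG1 1000 nM replicate 2, which had the fewest genes at 1 FPKM (9284), the XG1 median was -0.096, with 264 higher and 936 lower. Without XG1 1000 nM replicate 3 it was -0.263, with 196 higher and 2378 lower. After centring, BIRC3 was lower by -0.999 in AMO1 at 1000 nM and TNFAIP3 by -0.38 (adjusted p = 0.0375), both still called. NFKB2 was then at -0.44 (adjusted p = 0.0747) and NFKB1 at -0.30 (adjusted p = 0.0995), both no longer called. NFKB1 was also lost after quantile normalization (-0.28, adjusted p = 0.113). Scaling to the spike-ins left all 4 called. The spike-in medians deviated by only -0.08 to 0.07 log2, so that scaling hardly changed the values and is a weak check on the calls.

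NFKBIA lay on the other side of 0 in AMO1. As deposited its change in AMO1 was not called, at 0.51 ± 0.17 log2 at 100 nM (adjusted p = 0.114) and 0.46 ± 0.17 at 1000 nM (adjusted p = 0.0659). It was called higher after centring, at 0.69 for 100 nM (adjusted p = 0.0183) and 0.75 for 1000 nM (adjusted p = 0.00363), and after quantile normalization, at 0.50 (adjusted p = 0.0131) and 0.64 (adjusted p = 0.000749). AMO1 DMSO replicate 3 was the low library at 99.7 FPKM, and without it the change at 1000 nM was 0.19 (adjusted p = 0.199) and at 100 nM 0.25 (adjusted p = 0.158). Without AMO1 DMSO replicate 1 the change at 1000 nM was 0.62 (adjusted p = 0.0233), past the threshold. In the XG1 libraries the change was 0.11 at 100 nM (adjusted p = 0.800) and -0.05 at 1000 nM (adjusted p = 0.889). After centring, the XG1 value at 1000 nM was 0.20 (adjusted p = 0.398), so its sign there follows the scaling.

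RELA, RELB and NFKBIE were not called in any dose comparison. Their log2 changes in AMO1 at 1000 nM were -0.06 ± 0.23, -0.25 ± 0.22 and 0.11 ± 0.25 (SE). Without AMO1 DMSO replicate 3, RELA was at -0.43 (adjusted p = 0.0626) and RELB at -0.50 (adjusted p = 0.0806), and after centring RELA was at 0.24 and RELB at 0.04, so no direction can be read for either. NFKBIE in the XG1 libraries was at 0.40 ± 0.25 at 100 nM (adjusted p = 0.389) and 0.24 ± 0.25 at 1000 nM (adjusted p = 0.574).

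**Figure D2:**
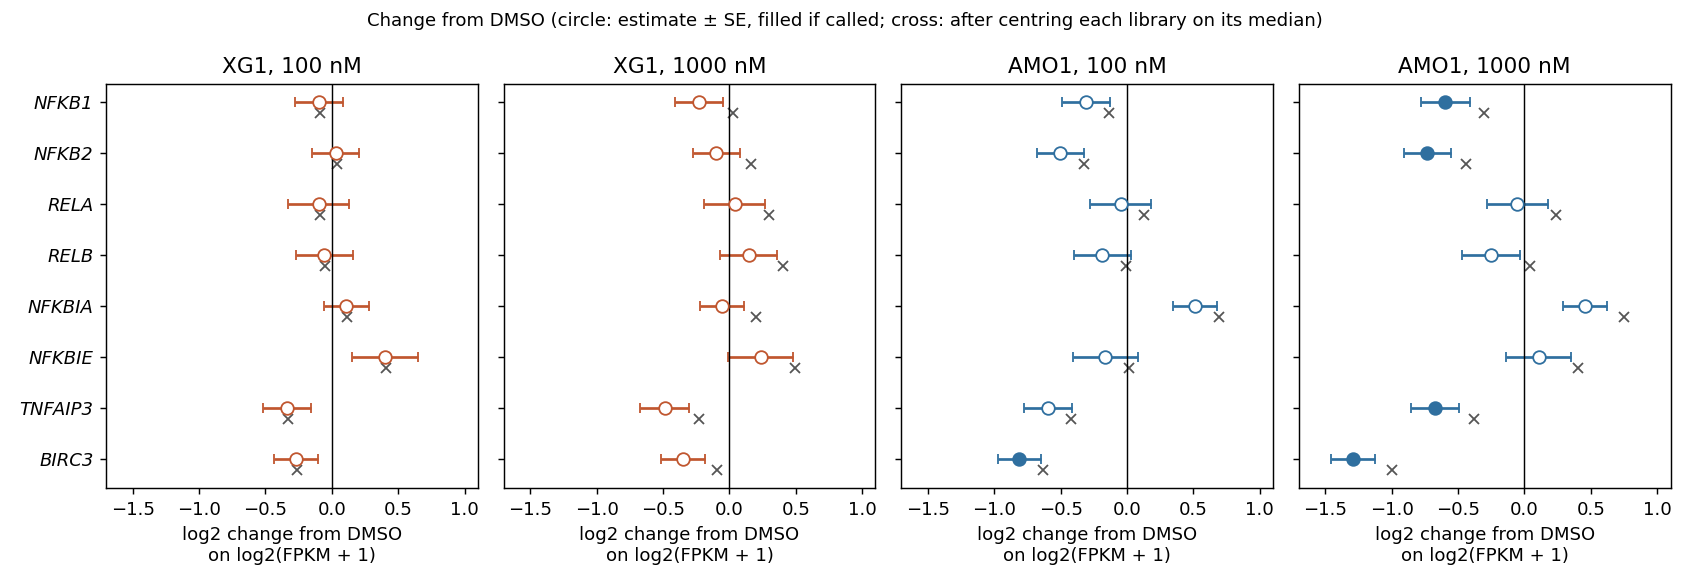
Log2 change from DMSO of the 8 tested genes on log2(FPKM + 1), with circles for the estimate, bars for its SE, filled circles for called genes and crosses for the estimate after centring each library on its median. Filled circles are BIRC3 in AMO1 at 100 nM (-0.81) and BIRC3, NFKB2, TNFAIP3 and NFKB1 in AMO1 at 1000 nM (-1.29 to -0.59), and no circle is filled in XG1.

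**Figure D3:**
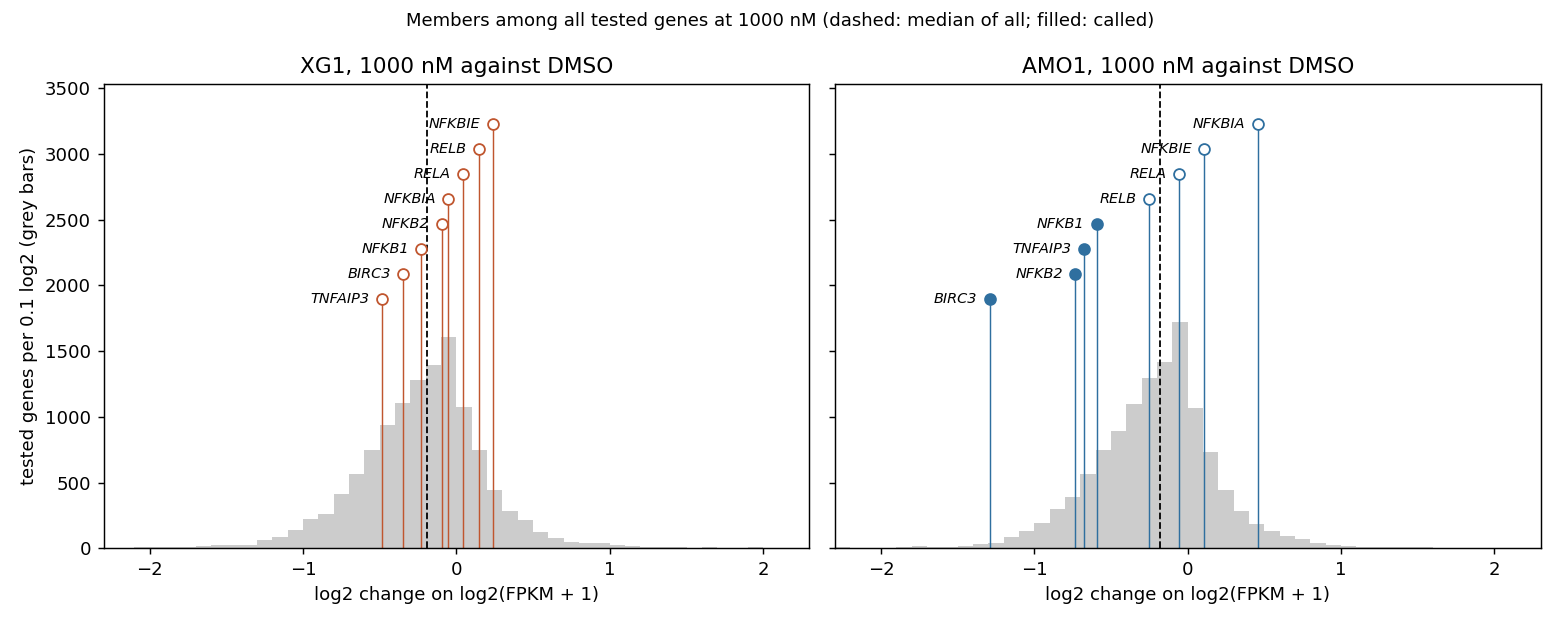
Histogram of log2 changes at 1000 nM against DMSO for all 12204 tested genes (grey, number of genes per bin of 0.1) in XG1 (left) and AMO1 (right), with the 8 NF-kappaB genes marked and the median of all genes dashed at -0.19 and -0.18. In AMO1 the 8 genes run from -1.29 (BIRC3) to 0.46 (NFKBIA), and in XG1 from -0.49 (TNFAIP3) to 0.24 (NFKBIE).

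Raising the dose from 100 to 1000 nM moved none of the 8 genes past the test. Limma called 0 of the 8 in XG1, where 0.139% of all tested genes were called, and 0 of the 8 in AMO1, where 0.180% were called. At an unadjusted p under 0.05 the counts were 0 in XG1 and 1 in AMO1, where 1995 and 1282 of the 12204 tested genes passed. The 1 was BIRC3, at -0.48 ± 0.16 (adjusted p = 0.280), with all 3 libraries at 1000 nM below all 3 at 100 nM. The comparisons with DMSO share their DMSO libraries, so their likeness across doses is not an independent repeat.

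Whether the lines responded differently was tested as the XG1 response minus the AMO1 response. None of the 8 was called at 100 nM, where 0.156% of all tested genes were called, and none at 1000 nM, where 0.680% were called. At an unadjusted p under 0.05 there were 2 at 100 nM (NFKB2 and BIRC3) and 3 at 1000 nM (NFKB2, NFKBIA and BIRC3). Over all 12204 tested genes, 1071 passed that threshold at 100 nM and 1231 at 1000 nM. NFKB2 and BIRC3 were under 1 FPKM in every XG1 library. BIRC3 came closest, with a difference of 0.94 ± 0.23 at 1000 nM (adjusted p = 0.0683), from a change of -0.35 in XG1 (adjusted p = 0.155) and -1.29 in AMO1. This difference passed after centring (0.91, adjusted p = 0.0121), after quantile normalization (0.73, adjusted p = 0.0188), without AMO1 DMSO replicate 3 (1.07, adjusted p = 0.0217), and without XG1 1000 nM replicate 2 (1.03, adjusted p = 0.0434). It did not pass with spike-in scaling (adjusted p = 0.0597), with no filter (adjusted p = 0.0862), with only the groups compared in the fit (adjusted p = 0.151) or with the replicate block (adjusted p = 0.203), and with a pseudocount of 0.1 it was 0.47 (adjusted p = 0.814). A pseudocount of 1 compresses changes of a gene under 1 FPKM: as a ratio of means, BIRC3 at 1000 nM was 0.479 of DMSO in XG1 and 0.384 of DMSO in AMO1, and with a pseudocount of 0.1 its XG1 change was -0.89 (adjusted p = 0.0286), past the threshold. TNFAIP3 was at -0.49 ± 0.18 in XG1 (adjusted p = 0.0712) and -0.67 ± 0.18 in AMO1, a difference of 0.19 ± 0.26 (adjusted p = 0.894). NFKBIA differed by -0.51 ± 0.24 (adjusted p = 0.462).

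In DMSO, the XG1 libraries were lower than the AMO1 libraries for 7 of the 8 genes, all but RELA, where 62.7% of all tested genes were called and 34.4% were called lower. Nothing is read from that count, because BIRC3 and NFKB2 entered the test only through AMO1 groups, which fixed their direction. Their levels are therefore given as a description only. BIRC3 had 0.713 ± 0.235 FPKM in XG1 and 28.4 ± 4.68 FPKM in AMO1 (SD, n = 3 each), and NFKB2 had a mean of 0.496 FPKM in XG1 and 2.08 FPKM in AMO1. The 44 spike-in RNAs, which should be equal, differed between the lines with an SD of 0.55 log2 and a range of -1.36 to 1.05, against median SDs of 0.139 within XG1 and 0.143 within AMO1, and differences of that size are not counted by the replicate error. RELB differed by more than that range, at -2.70 ± 0.22 log2 (adjusted p = 1.04e-09), with 2.24 ± 0.142 FPKM in XG1 and 20.6 ± 5.88 FPKM in AMO1. TNFAIP3 was at -2.17 ± 0.18 (adjusted p = 2.21e-09), with 2.73 ± 0.342 FPKM in XG1 and 15.8 ± 1.78 FPKM in AMO1.

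The line differences of NFKBIA, NFKBIE and NFKB1 were within or near the spike-in range. NFKBIA was at -1.37 ± 0.17 (adjusted p = 5.2e-07), with 55.2 ± 1.37 FPKM in XG1 and 148.6 ± 43.3 FPKM in AMO1. NFKBIE was at -0.83 ± 0.25 (adjusted p = 0.00618), and NFKB1 was at -0.79 ± 0.18 (adjusted p = 0.000738). RELA was not called, at -0.32 ± 0.23 (adjusted p = 0.234), with 36.4 ± 5.94 FPKM in XG1 and 48.2 ± 19.1 FPKM in AMO1, but was called lower in XG1 without AMO1 DMSO replicate 3 (-0.69, adjusted p = 0.00123). As the marker counts above show, the lines also differ in plasma cell and erythroid genes, so the line and what sets those markers cannot be told apart.

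The rest of the pathway was read from 92 genes in 5 lists, of which 72 were tested. In AMO1 at 1000 nM, 18 of the 72 were lower and 1 higher (median log2 -0.23), where 15.4% of all tested genes were lower and 1.78% higher. In XG1 at 1000 nM, 12 were lower and 1 higher (median -0.15), close to the 15.7% lower and 1.90% higher of all tested genes. At 100 nM the counts were 5 lower and 1 higher in AMO1, where 1.76% of all tested genes were lower and 0.434% higher. In XG1 at 100 nM they were 2 lower and 2 higher, where 3.98% were lower and 2.63% higher. The 5 lower in AMO1 at 100 nM became 1 with a pseudocount of 0.1, 1 with only the groups compared in the fit and 1 with the replicate block. They became 2 with no filter, 4 after centring and 3 after quantile normalization. In the first 4 of these settings the calls lower over all genes also fell, from 215 to 94, 44, 89 and 144. They were 188 after centring and 254 after quantile normalization. Of the list genes, 58 were tested with only the groups compared in the fit and 92 with no filter. The shares of all tested genes at 1000 nM, 15.4% lower in AMO1 and 15.7% in XG1, are the background for the counts as deposited of each list that follows. For counts after centring, the background over the 12204 tested genes was 1012 higher and 815 lower in AMO1, and 969 higher and 969 lower in XG1. For counts after quantile normalization, the background was 861 higher and 1011 lower in AMO1, and 1174 higher and 1209 lower in XG1. After centring, the medians of the 5 lists at 1000 nM ran from 0.00 to 0.14 in XG1 and from -0.31 to 0.24 in AMO1, and the calls were 6 higher and 7 lower in XG1 and 10 higher and 9 lower in AMO1. The balance of the 72 at 1000 nM thus depended on the scaling. After quantile normalization the calls were 5 higher and 9 lower in XG1 and 8 higher and 11 lower in AMO1.

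Receptors and ligands had 4 of 11 tested genes lower in AMO1 at 1000 nM and 2 of 11 lower in XG1, with 0 higher in either, and the XG1 count is near the background of 15.7%. After centring 2 were lower in AMO1 and 0 in XG1. The XG1 calls were TNFRSF1B (-0.65, adjusted p = 0.0394) and TNFRSF8 (-0.63, adjusted p = 0.0233), and leaving out either of XG1 DMSO replicates 1 and 2 also ended both. TNFRSF8 encodes CD30, a receptor that activates NF-kappaB. It had 4.42, 4.23 and 5.54 FPKM in AMO1 at 100 nM and 2.35, 2.38 and 2.62 FPKM at 1000 nM, against 12.5, 12.3 and 8.72 FPKM in DMSO, and the 3 groups did not overlap. Its log2 change was -1.81 ± 0.19 at 1000 nM (adjusted p = 3.69e-06), larger than that of BIRC3, and -1.08 ± 0.19 at 100 nM (adjusted p = 0.00314), a call lost with a pseudocount of 0.1. TNFRSF17, the plasma cell receptor BCMA, fell by 0.89 ± 0.19 in AMO1 at 1000 nM (adjusted p = 0.00286), to 88.0 FPKM, against 164.2 FPKM in DMSO, and was not called after centring or quantile normalization. TNFRSF13B, which encodes TACI, fell by 1.07 ± 0.26 (adjusted p = 0.00687), and was not called without AMO1 DMSO replicate 1.

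Adaptors and ubiquitin ligases had 6 of 17 lower in AMO1 at 1000 nM and 2 of 17 lower in XG1, with 0 higher, against a background of 15.4% in AMO1 and 15.7% in XG1, which the XG1 count does not reach. The counts were 3 lower and 4 higher in AMO1 and 2 lower and 2 higher in XG1 after centring. TRAF5, an adaptor of the receptor complexes, fell in both lines, by 1.00 ± 0.21 in AMO1 (adjusted p = 0.00263) and by 0.91 ± 0.21 in XG1 (adjusted p = 0.00514). MALT1, the paracaspase of the antigen receptor route, fell by 0.90 ± 0.20 in AMO1 (adjusted p = 0.00459), and TRAF2, the partner of BIRC3 in the receptor complex, by 0.80 ± 0.19 (adjusted p = 0.00608). IRAK4, the kinase of the interleukin 1 and Toll-like receptor route, fell by 0.85 ± 0.17 in XG1 (adjusted p = 0.00234). At 100 nM RIPK1, a scaffold kinase of the TNF receptor complex, was higher in XG1 by 0.99 ± 0.24 (adjusted p = 0.0160), at 16.3 FPKM, against 7.71 FPKM in DMSO, a call that ended when XG1 DMSO replicate 3 or XG1 100 nM replicate 1 was left out. TRAF5 was lower there by 0.94 ± 0.21 (adjusted p = 0.00971), with an adjusted p of 0.0503 without XG1 100 nM replicate 3.

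The kinases of the core, with their partner proteins, had 3 of 8 lower in each line at 1000 nM, against 15.4% in AMO1 and 15.7% in XG1 over all tested genes, and after centring 1 lower and 1 higher in AMO1 and 1 lower in XG1. As deposited the AMO1 genes were CHUK, which encodes IkappaB kinase alpha, IKBKB, which encodes IkappaB kinase beta, and IKBKE. IKBKB fell by 0.81 ± 0.19 (adjusted p = 0.00645), to 1.96 FPKM, against 4.23 FPKM in DMSO, and held under every alternative. CHUK fell by 0.87 ± 0.26 (adjusted p = 0.0278), a call that centring, quantile normalization and no filter each ended. IKBKE fell by 0.72 ± 0.18 (adjusted p = 0.00986), which centring also ended. In XG1 CHUK fell by 0.95 ± 0.26 (adjusted p = 0.0165), and TAB1 and TBK1 fell by 0.69 ± 0.20 and 0.65 ± 0.20 (adjusted p = 0.0248 and 0.0293). The calls of TAB1 and TBK1 both ended with centring, no filter, only the groups compared in the fit or the replicate block. That of TBK1 also ended with quantile normalization. Both were also lost without replicate 1 or 2 of XG1 DMSO or of XG1 1000 nM. CHUK in XG1 was lost without XG1 DMSO replicate 1 or 2 or XG1 1000 nM replicate 2, with an adjusted p of up to 0.108. CHUK in AMO1 was lost without replicate 1 or 2 of either group, and IKBKE without AMO1 DMSO replicate 2 or AMO1 1000 nM replicate 1.

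Other inhibitors and deubiquitinases had 1 of 12 lower in each line at 1000 nM, below the background of 15.4% in AMO1 and 15.7% in XG1, joined after centring by 2 higher in AMO1 and 1 higher in XG1. In AMO1 the lower one was OTULIN, a deubiquitinase of linear ubiquitin chains, with 2.96, 2.85 and 3.77 FPKM at 1000 nM, against 7.57, 7.08 and 5.42 FPKM in DMSO, a fall of 0.87 ± 0.17 (adjusted p = 0.00203). In XG1 the lower one was NFKBIZ, a nuclear IkappaB protein, with 9.18, 5.42 and 7.41 FPKM at 1000 nM, against 17.1, 12.6 and 12.4 FPKM in DMSO, a fall of 0.86 ± 0.19 (adjusted p = 0.00379). The NFKBIZ level was under 1 FPKM in all 9 AMO1 libraries, so no change can be read there.

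Other target genes had 4 of 24 lower and 1 of 24 higher in each line at 1000 nM, near the background of 15.4% lower in AMO1 and 15.7% in XG1, and nothing is read from the count. After centring the counts were 2 lower and 3 higher in AMO1 and 3 lower and 3 higher in XG1. The higher one as deposited was IER3, an early response gene that NF-kappaB and other factors induce, in both lines. IER3 had 37.2, 45.7 and 50.7 FPKM in AMO1 at 100 nM and 49.6, 50.4 and 49.0 FPKM at 1000 nM, against 18.2, 19.5 and 11.4 FPKM in DMSO. In the XG1 libraries it had 37.4, 38.7 and 31.5 FPKM at 100 nM and 51.5, 42.5 and 32.2 FPKM at 1000 nM, against 21.6, 19.3 and 21.7 FPKM in DMSO. All treated libraries lay above all DMSO libraries of their line. The rise at 1000 nM was 1.58 ± 0.19 log2 in AMO1 (adjusted p = 2.04e-05) and 0.95 ± 0.19 in XG1 (adjusted p = 0.0019), and the calls at 1000 nM held under every alternative.

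CFLAR, which encodes the caspase 8 inhibitor c-FLIP, and IRF1, an interferon response factor, led the lower targets in AMO1. CFLAR had 20.4, 21.5 and 18.6 FPKM at 100 nM and 13.1, 12.7 and 13.6 FPKM at 1000 nM, against 31.4, 35.8 and 32.6 FPKM in DMSO, and fell by 1.27 ± 0.15 at 1000 nM (adjusted p = 2.04e-05). IRF1 had 8.35, 6.57 and 9.25 FPKM at 100 nM and 5.76, 6.42 and 7.36 FPKM at 1000 nM, against 17.2, 17.99 and 11.9 FPKM in DMSO, and fell by 1.14 ± 0.20 at 1000 nM (adjusted p = 0.000753). Both calls at 1000 nM held under every alternative, and both calls at 100 nM were lost under quantile normalization, among other settings. CCL3, a chemokine, fell by 1.05 ± 0.31 in AMO1 (adjusted p = 0.0280), and was not called with a pseudocount of 0.1, with no filter, after centring or quantile normalization, or without replicate 1 or 2 of either group.

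In XG1 the lower targets at 1000 nM were led by chemokines. CXCL8, which encodes interleukin 8, had 8.17, 2.64 and 6.06 FPKM at 1000 nM, against 30.6, 19.5 and 10.9 FPKM in DMSO, and fell by 1.68 ± 0.30 (adjusted p = 0.000924), a call lost with only the groups compared in the fit (adjusted p = 0.0566). CXCL1 fell by 1.08 ± 0.23 (adjusted p = 0.00277), to 2.34 FPKM, against 6.03 FPKM in DMSO. TNFAIP8, a TNF-induced regulator of cell death, fell by 0.89 ± 0.17 (adjusted p = 0.00122), to 20.9 FPKM, against 39.7 FPKM in DMSO. CXCL8 was at most 0.191 FPKM in the 9 AMO1 libraries.

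**Figure D4:**
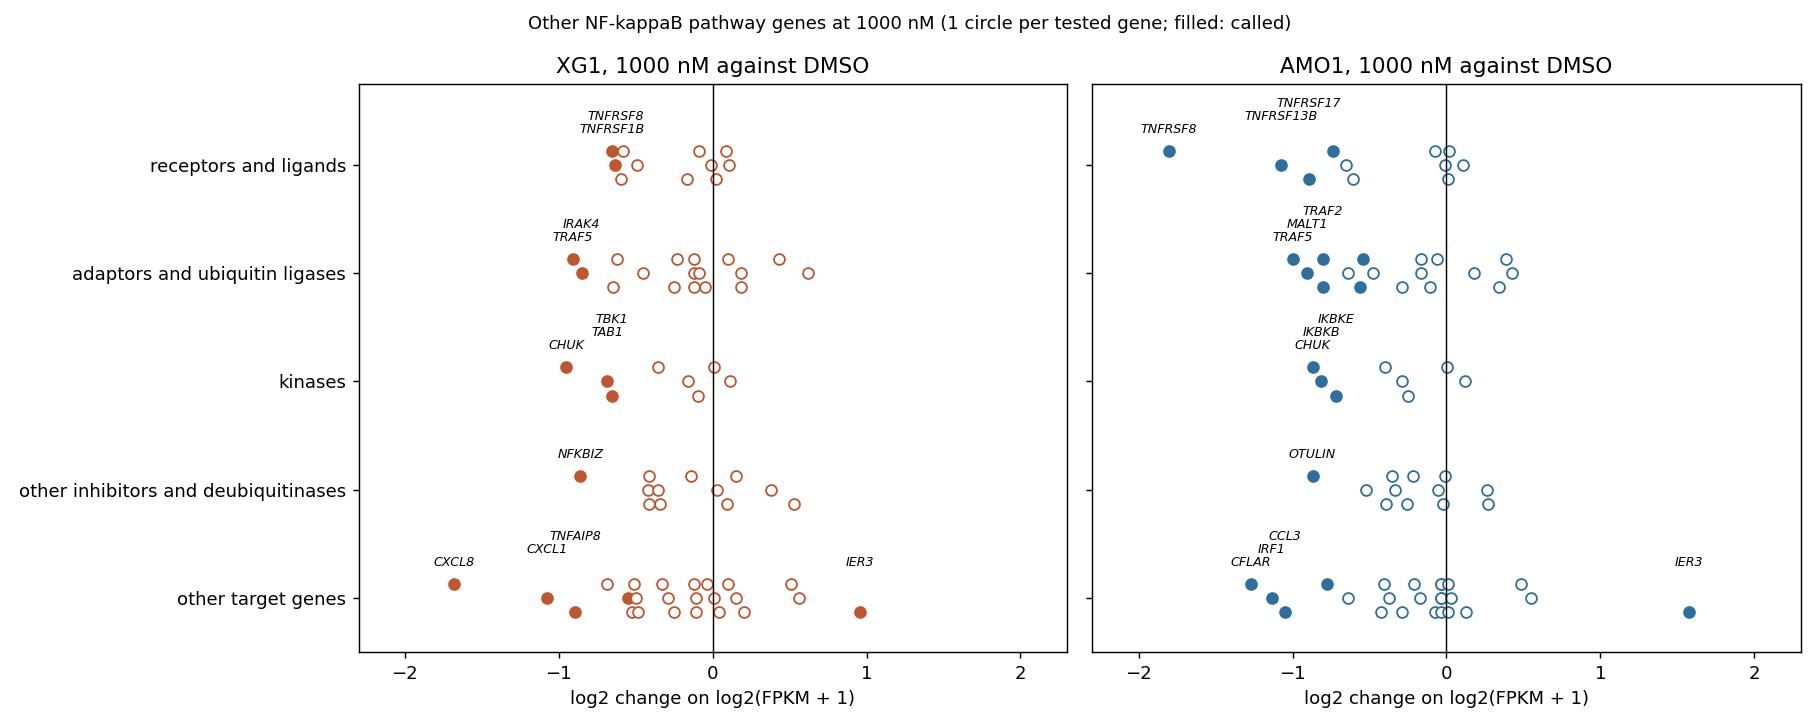
Log2 change at 1000 nM against DMSO on log2(FPKM + 1) for each tested gene of the 5 other pathway lists, in XG1 (left) and AMO1 (right), 1 circle per gene and filled where called, with up to 3 called genes per list and direction named above the circles. On the values as deposited IER3 is the only filled circle above 0 in either line (0.95 in XG1, 1.58 in AMO1), and TNFRSF8 in AMO1 is the lowest at -1.81.

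In DMSO the lists had 23 of 72 higher and 31 of 72 lower in XG1, where 28.3% of all tested genes were higher and 34.4% lower. Nothing is read from these counts. Some of the genes, TNFRSF13B and CXCL8 among them, entered the test only through the line where they were high, which fixed their direction. MAP3K14 was lower in XG1 (0.693 FPKM, against 7.02 FPKM in AMO1), as were BCL3, a nuclear IkappaB protein (1.24 FPKM, against 20.3 FPKM), TNIP1, a partner of A20 (11.9 FPKM, against 54.4 FPKM), and the cytokine gene LTB (3.81 FPKM, against 122.5 FPKM). BIRC2, the close relative of BIRC3, was higher in XG1, at 40.1 FPKM, against 17.1 FPKM in AMO1, a difference of 1.19 log2 that lies close to the largest spike-in differences. NFKBIZ was also higher in XG1, at 14.01 FPKM, against 0.736 FPKM in AMO1, and so was TNFRSF1A, a TNF receptor, at 6.85 FPKM, against 0.768 FPKM. MAP3K14 passed the filter only through AMO1, and NFKBIZ and TNFRSF1A only through XG1, so the direction of these 3 was fixed and they are descriptions. The differences of BCL3, TNIP1, LTB and BIRC2 were called (adjusted p at most 6.94e-06).

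The genes whose 4 changes from DMSO lay closest to those of a called NF-kappaB gene were found by the mean absolute difference of the 4 log2 changes, among genes called in the same comparisons. This likeness is a description over 4 comparisons that share DMSO libraries. BIRC3 and NFKB2 were under 1 FPKM in every XG1 library, where a pseudocount of 1 compresses their changes. The XG1 part of their likeness therefore depends on that pseudocount. Nearest to BIRC3, among 250 candidates, were DOLPP1 (0.082), NRROS, SPIB, CFLAR and SPRY1 (0.125). Nearest to TNFAIP3, among 2087 candidates, were ZNF202 (0.0399), PPRC1, WDR3 and ATF1 (0.0447). Nearest to NFKB2, also among 2087, were STK17B (0.0203), ALDH3A2, SEMA3G, ACSL1 and SLC16A6 (0.0344). CFLAR is thus the one gene of the 5 lists that also came among the 5 nearest to BIRC3, at -0.69 and -1.27 in AMO1 at 100 and 1000 nM and -0.35 and -0.55 in XG1.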

How the data were processed

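RNA was measured in 18 libraries, 3 per group, prepared by the QuantSeq method for 3′ ends per the labels' protocols. The labels give RPMI medium, lysis in TRIzol and column purification of the RNA. The labels do not say whether replicates came from separate cultures, so p-values cover only the spread among these libraries, and that spread could be technical. Per the submitters' processing notes HISAT2, Cuffnorm and hg19 were used by the authors. Versions, gene models and strand handling are not given in the sources used. The deposited values, made by the authors, are FPKM, a unit taken from Cuffnorm, since the file headers name only an expression value. Depth is unknown, so no counting interval was set and no count model was used.

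The 12204 of 26249 genes whose mean reached 1 FPKM in any group were tested with limma 3.58.1 (R 4.3.3, statmod 1.5.0; trended prior, robust) on log2(FPKM + 1), with all 18 libraries in 1 fit of group means, two-sided, with Benjamini-Hochberg adjustment over all tested genes and a threshold of 0.05. Fold changes on this scale understate changes of low genes. The script was tested on simulated data. Alternatives were a pseudocount of 0.1, no filter, centring, quantile normalization, spike-in scaling, fits of only the groups compared, a replicate block, and leaving out each library.

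The 10 genes and the 5 lists were chosen with earlier results of these data known. All 10 were named. From each list, called genes whose groups did not overlap were named, up to 3 per direction and comparison, of which the text gives a selection. The nearest genes by the 4 changes were named for the 3 called members with the largest summed change. One result that this rule names is not reported here.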

Additional observations from a re-analysis of the deposited data

Results flagged for a closer look

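TNFRSF8, the CD30 receptor gene, drew attention because the difference of its response between the lines was called on the values as deposited. The XG1 response at 1000 nM minus the AMO1 response was 1.17 ± 0.26 on the log2(FPKM + 1) scale (limma, adjusted p = 0.0411), from changes of -0.63 in XG1 and -1.81 in AMO1. Of the 72 other pathway genes it was the only one whose difference passed at this dose, where 0.680% of all 12204 tested genes passed. Nothing is read from that count. TNFRSF8 had 0.402, 0.313 and 0.227 FPKM in XG1 at 1000 nM, against 1.51, 1.14 and 0.566 FPKM in XG1 DMSO. As a ratio of means it was 0.293 of DMSO in XG1 and 0.219 in AMO1. With a pseudocount of 0.1 the difference was 0.70 (adjusted p = 0.743), and it was also lost with no filter (adjusted p = 0.0711), with only the groups compared (adjusted p = 0.0951), with the replicate block (adjusted p = 0.108) and in 11 of 18 fits that left out 1 library.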

How the results depend on the processing

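The number of the 8 tested genes called moved as follows. In AMO1 at 100 nM it was 1 as reported, 2 after centring and after quantile normalization, and 0 with a pseudocount of 0.1, with only the groups compared in the fit and with the replicate block; with 1 library left out it ran from 0 to 2. In AMO1 at 1000 nM, 4 as reported, it ran from 2 to 4 with 1 library left out, with 2 calls without replicate 2 of AMO1 DMSO or of AMO1 1000 nM, and it was 3 with the replicate block, 3 with no filter (NFKB2, TNFAIP3 and BIRC3, of 10 then tested), 3 after centring (TNFAIP3 and BIRC3 lower, NFKBIA higher) and 4 after quantile normalization (NFKB2, TNFAIP3 and BIRC3 lower, NFKBIA higher). The same 4 were called with a pseudocount of 0.1, with spike-in scaling and with only the groups compared in the fit. In XG1 at 100 nM it was 1 after quantile normalization in place of 0 (TNFAIP3). In XG1 at 1000 nM it was 1 with a pseudocount of 0.1 in place of 0, and 0 to 1 with 1 library left out, with 1 without XG1 1000 nM replicate 1. For the difference of the line responses at 1000 nM it was 1 after centring and after quantile normalization in place of 0, and 0 to 1 with 1 library left out. The background in AMO1 at 100 nM moved too, from 53 genes higher and 215 lower over all tested genes as reported. It was 289 and 188 after centring, 205 and 254 after quantile normalization, and 43 and 94 with a pseudocount of 0.1. With only the groups compared in the fit it was 19 and 44, and with the replicate block 34 and 89. The cause of these moves was not tested.

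Of 490 single gene values under alternative processing 8 lost and 8 gained a call, and of 1296 with 1 library left out 10 lost and 6 gained one. No called value changed sign, while 73 values that were not called did. The same-numbered libraries of a line had residual correlations from -0.0519 to 0.0316 in XG1 and from -0.1237 to 0.0908 in AMO1. Those with different numbers had -0.1079 to 0.1217 in XG1 and -0.129 to 0.1251 in AMO1. No pairing by number was seen, which does not exclude that the samples were paired. The replicate block was not fitted for XG1 against AMO1 in DMSO, where numbers run within a line. With no counts, depth sets an unknown limit on REL, TRAF1 and, in XG1, BIRC3 and NFKB2. The number of all tested genes called, the background of these counts, moved too. It was 807 in XG1 at 100 nM (399 to 1878 over all settings), 2152 in XG1 at 1000 nM (1110 to 2641), 268 in AMO1 at 100 nM (63 to 980) and 2091 in AMO1 at 1000 nM (1185 to 3049), with the highest AMO1 values both reached without AMO1 DMSO replicate 3. Between the doses it was 17 in XG1 (0 to 311) and 22 in AMO1 (2 to 118), and for the difference of responses 19 at 100 nM (1 to 76) and 83 at 1000 nM (27 to 216).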
